A study of Mus musculus with 6 samples.

Results

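The SLC25 genes encode the mitochondrial carriers, membrane proteins that move metabolites across the inner membrane of the mitochondrion. The members described here are the genes of the count table whose symbol starts with Slc25a, less 1 carrier and the pseudogene symbol, and with 10 or more counts in at least 3 of 6 libraries. Of 46 such symbols 38 passed that minimum, out of 34945 symbols in the table. RNA of the left ventricle was sequenced from 3 mice carrying the knock-in allele that the labels call 4SA-Rad and from 3 wild-type mice. Rad, the product of Rrad, restrains voltage-gated calcium channels of heart muscle cells, and in the 4SA allele serines that protein kinase A phosphorylates are replaced by alanine. All 6 mice are labelled C57BL/6N, and the sources used here give no age, sex or treatment for either genotype. Replicates are separate mice by their codes in the labels.

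A carrier is built of repeats of a pair of membrane helices and exchanges or cotransports small molecules between the matrix and the space outside it. In heart muscle the ADP/ATP exchangers and the phosphate carrier feed ATP synthase and export its product. Other carriers run the malate-aspartate shuttle, bring in cofactors and nucleotides, or load iron and glutathione. Several of them bind calcium on their outer side, among them the aspartate/glutamate carriers and the ATP-Mg/phosphate carriers.

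The knock-in libraries held 35259459 to 39627397 estimated counts and the wild-type libraries 24761124 to 32669182. Transcripts of the mitochondrial genome took 53.5% to 56.9% of the counts in knock-in and 53.1% to 55.8% in wild-type. The 7 cardiomyocyte markers summed to 37259 to 38170 CPM (counts scaled to a common library size, with TMM factors) in knock-in and 35661 to 37930 CPM in wild-type. The 3 atrial markers summed to 38.4 to 70.6 CPM in knock-in and 4.95 to 71.2 CPM in wild-type, and the endothelial, fibroblast and smooth muscle markers overlapped between the genotypes in their sums. Of these lists 1 of 5 endothelial markers, Tie1, was called lower, and of 7 cardiomyocyte markers 0 were called by edgeR (3 with an unadjusted p below 0.05), 3 by DESeq2 and 2 by limma-voom. Rrad stood at 42.0 ± 14.9 CPM in knock-in and 35.6 ± 7.94 CPM in wild-type (SD, n = 3 each), and counts per gene do not separate the alleles. Nnt, whose loss marks the C57BL/6J substrain, stood at 596, 729.6 and 716 CPM in knock-in and 282, 272 and 262 CPM in wild-type (log2 fold change 1.32 ± 0.07, edgeR adjusted p = 2.02e-05). Nnt was thus lower but not absent in wild-type, and the labels give C57BL/6N for both genotypes. Whether the genotypes differ in substrain was not tested, so that substrain and Rad allele cannot be told apart in any difference below.

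Most carrier genes were at nearly the same level in both genotypes. Of 38 members 2 rose in knock-in, Slc25a42 and Slc25a23, 2 fell, Slc25a33 and Slc25a5, and 34 did not pass the test. The test was edgeR's quasi-likelihood test across all 13485 genes, with Benjamini-Hochberg adjustment over all of them and a call at an adjusted p below 0.05. Among all genes tested 9.01% were called, 4.0% as higher and 5.01% as lower, so the share of members called, 10.5%, was close to that of all genes. The members' log2 fold changes had a median of -0.01, beside 0.004 over all genes, with 17 above 0 and 21 below. Their absolute log2 fold changes had a median of 0.10, against 0.13 over all genes, and 33 members differed by less than 1.25-fold. These 33 include the called genes Slc25a42, Slc25a23 and Slc25a5. CPM ranges of the genotypes did not overlap for 10 members, 5 higher and 5 lower, which is 26.3% beside 29.4% of all genes tested.

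**Figure D1:**
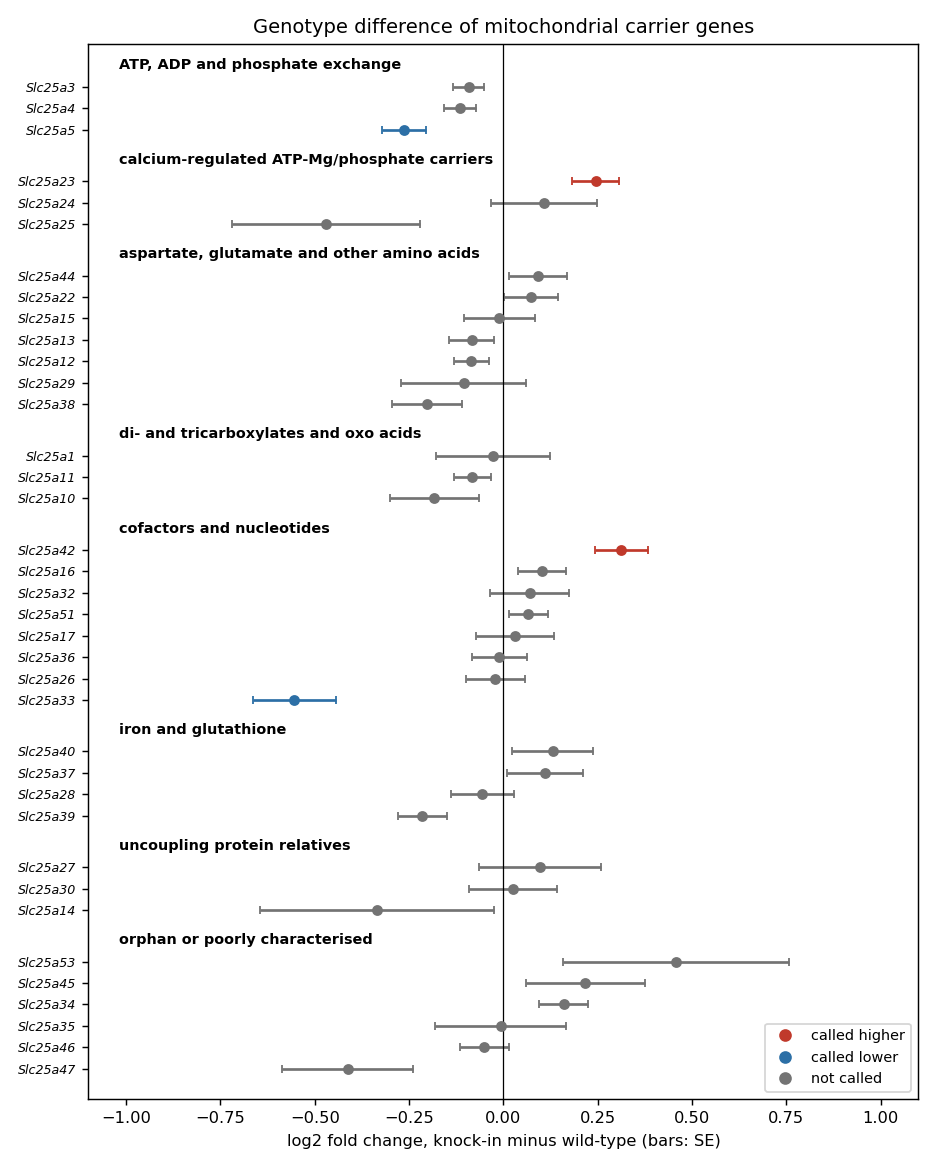
Log2 fold change (knock-in minus wild-type) with its SE for the carrier genes reported here, grouped by what they carry; red marks genes called higher, blue genes called lower and grey genes not called. The points lie between -0.55 for Slc25a33 and 0.46 for Slc25a53, and the 4 called genes fall into 3 different groups.

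**Figure D2:**
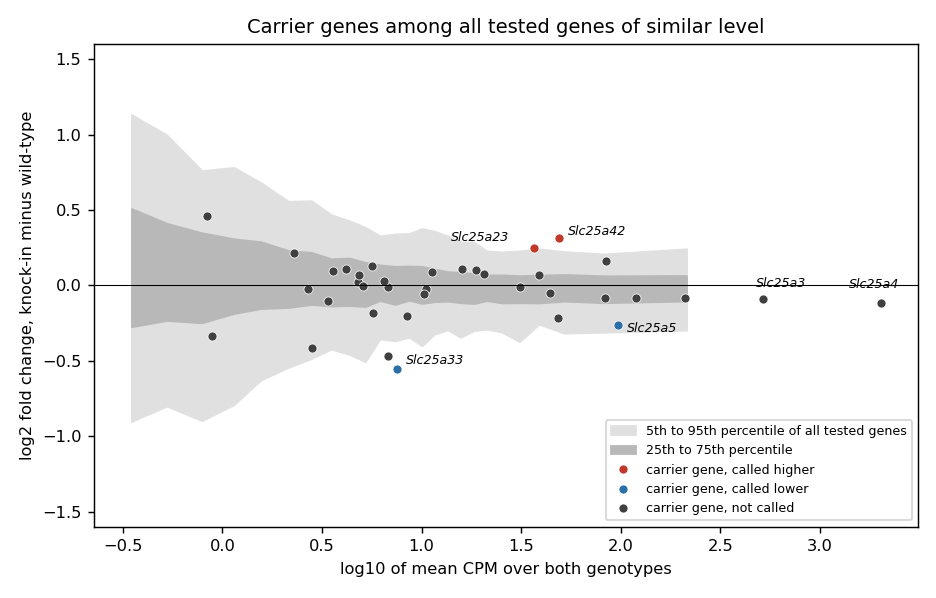
Log2 fold change against the log10 of mean CPM for the carrier genes reported here, over bands that hold the 5th to 95th and the 25th to 75th percentile of all 13485 tested genes in 25 bins of level. Most carrier genes lie inside the bands, and the 2 most abundant, Slc25a4 and Slc25a3, lie beyond the median level of the highest bin.

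Slc25a42 encodes the carrier that brings coenzyme A into the mitochondrial matrix. The 3 knock-in libraries, in the order of replicates 1 to 3, held 53.9, 53.1 and 55.3 CPM of it, against 45.1, 47.1 and 38.5 CPM in the wild-type libraries. Every knock-in library was above every wild-type library, and wild-type replicate 3 was the lowest. The gene rose by 0.31 ± 0.07 on the log2 scale, 1.24-fold (edgeR adjusted p = 0.0232). The gene spans chr8:70184340-70212305 on the minus strand of GRCm38, the build of all coordinates here.

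Slc25a23 encodes an ATP-Mg/phosphate carrier that calcium switches on from the outer side, and that exchanges adenine nucleotide for phosphate. Its levels were 42.7, 37.3 and 39.4 CPM in knock-in mice, against 32.3, 35.0 and 33.4 CPM in wild-type mice. Here too the genotypes did not overlap, although the lowest knock-in and the highest wild-type library differed by little. The gene rose by 0.25 ± 0.06 on the log2 scale, 1.19-fold (edgeR adjusted p = 0.037). Its span is chr17:57043711-57059863, minus strand.

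Slc25a33 encodes a carrier of pyrimidine nucleotides, which the matrix needs for mitochondrial DNA and RNA synthesis. It had the widest log2 difference among called members and the lowest level, with 7.06, 5.56 and 5.68 CPM in knock-in mice and 9.62, 8.28 and 8.97 CPM in wild-type mice. All knock-in libraries were below all wild-type libraries, from 193 to 292 counts per library. The gene fell by 0.55 ± 0.11 on the log2 scale, to 0.681 times the wild-type level (edgeR adjusted p = 0.0145). Its span is chr4:149744036-149774277, minus strand.

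Slc25a5 encodes an ADP/ATP exchanger that most cell types use, whereas Slc25a4 encodes the form typical of heart and skeletal muscle. Slc25a5 stood at 94.7, 82.1 and 86.1 CPM in knock-in mice and at 109, 101 and 105 CPM in wild-type mice. The ranges did not overlap, and knock-in replicate 1 came closest to wild-type. The gene fell by 0.26 ± 0.06 on the log2 scale, to 0.833 times the wild-type level (edgeR adjusted p = 0.0214). Its span is chrX:36795651-36798807, plus strand, and its level is uncertain because processed copies of it exist in the genome. The pseudogene symbol Slc25a5-ps had 0 to 1 counts per library. Macrophage markers moved with it: 5 of 6 fell, and their summed level was 93.3 to 106 CPM in knock-in and 132 to 133 CPM in wild-type, with none of the 6 at 0 counts. Their part in the Slc25a5 difference was not tested, and in bulk tissue fewer cells of a type and less RNA per cell cannot be told apart.

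**Figure D3:**
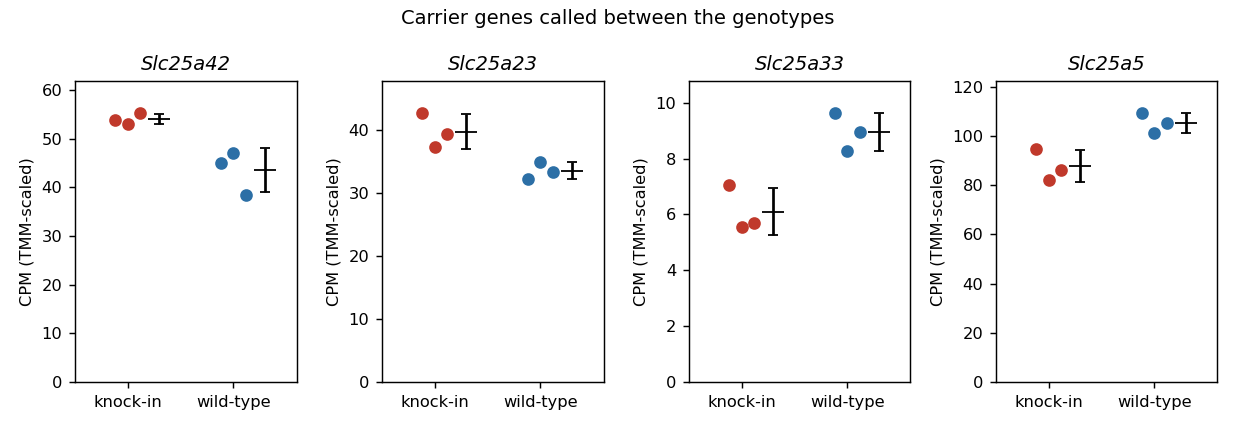
TMM-scaled CPM of the 4 called carrier genes in each library, knock-in left and wild-type right, with the mean and SD of 3 mice beside the points; each axis starts at 0. In each panel the points of one genotype lie above all those of the other, and relative to its level the distance is widest for Slc25a33, at 6.10 CPM in knock-in and 8.96 CPM in wild-type on average.

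How often these calls held with 1 library left out differed between the genes. Such a fit also has less power, so a lost call does not by itself show that it rested on 1 library. The log2 fold changes ranged there from -0.67 to -0.50 for Slc25a33 and 0.23 to 0.37 for Slc25a42. They ranged from -0.32 to -0.22 for Slc25a5 and 0.19 to 0.29 for Slc25a23. Of 6 fits that left out 1 library each, Slc25a33 was called in 4, Slc25a42 in 3, Slc25a5 in 2 and Slc25a23 in 1, and each kept its direction in all 6. The share of all genes called in these fits was 10.1%, 4.92% and 2.48% without knock-in replicate 1, 2 and 3, and 5.65%, 5.44% and 3.53% without wild-type replicate 1, 2 and 3. No member was called without knock-in replicate 3 or without wild-type replicate 3, where edgeR gave 7 and 10 members an unadjusted p below 0.05 and the smallest adjusted p was 0.0802 and 0.0514. The same 4 members were called with DESeq2 (8.47% of all genes called), limma-voom (9.28%), DESeq2 size factors in edgeR (8.98%), upper-quartile factors (8.73%), the mitochondrial genome left out before scaling (8.98%) and a filter of 50 counts in 3 libraries (11.0%). They were joined by Slc25a39 as lower without a filter (7.92%) and with robust dispersions (9.83%). Scaling by library size alone (10.4% called) gave 227 genes higher and 1177 lower, against 540 and 675 with TMM, with a median log2 fold change over all genes of -0.078 in place of 0.004; there no member was called higher, while Slc25a33, Slc25a5 and Slc25a39 were called lower.

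The sequences around the transcription starts of the 4 called genes are shown because these are the members that differed, 2 upward and 2 downward. Each runs 5′ to 3′ on the gene's own strand from 250 bases before to 50 bases after the RefSeq start on GRCm38.p6, and capitals mark matches to the motifs listed after them. Slc25a42 is chr8:70212232-70212531 (minus strand), Slc25a23 is chr17:57059814-57060113 (minus), Slc25a33 is chr4:149774218-149774517 (minus) and Slc25a5 is chrX:36795347-36795646 (plus). The RefSeq start of Slc25a5 lies upstream of the GENCODE span given above, so that its window ends just before that span begins.
Slc25a42: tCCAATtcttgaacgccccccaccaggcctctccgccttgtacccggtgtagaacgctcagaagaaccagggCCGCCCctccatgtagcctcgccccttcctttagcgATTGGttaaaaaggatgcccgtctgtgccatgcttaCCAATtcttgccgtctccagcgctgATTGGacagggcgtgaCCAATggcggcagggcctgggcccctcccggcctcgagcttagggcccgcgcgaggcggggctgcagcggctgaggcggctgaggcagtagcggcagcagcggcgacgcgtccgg
Slc25a23: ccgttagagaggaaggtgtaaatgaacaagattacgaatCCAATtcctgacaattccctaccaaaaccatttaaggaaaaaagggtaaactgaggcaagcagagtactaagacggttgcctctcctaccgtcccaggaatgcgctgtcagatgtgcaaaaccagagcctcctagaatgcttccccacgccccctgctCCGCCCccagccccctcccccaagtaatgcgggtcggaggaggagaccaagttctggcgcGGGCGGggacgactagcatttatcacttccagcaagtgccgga
Slc25a33: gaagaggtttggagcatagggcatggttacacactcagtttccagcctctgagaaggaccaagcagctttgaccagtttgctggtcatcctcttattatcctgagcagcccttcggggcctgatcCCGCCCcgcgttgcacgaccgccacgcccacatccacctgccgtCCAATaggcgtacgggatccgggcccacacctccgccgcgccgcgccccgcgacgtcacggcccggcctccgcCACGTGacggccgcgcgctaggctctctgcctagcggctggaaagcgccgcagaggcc
Slc25a5: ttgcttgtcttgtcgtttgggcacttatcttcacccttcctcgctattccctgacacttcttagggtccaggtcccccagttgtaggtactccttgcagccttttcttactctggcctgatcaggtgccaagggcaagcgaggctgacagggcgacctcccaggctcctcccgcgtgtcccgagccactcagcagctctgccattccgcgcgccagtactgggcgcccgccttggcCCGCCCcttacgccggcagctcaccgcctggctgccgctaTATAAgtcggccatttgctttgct

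The motifs were searched on both strands: the GC box GGGCGG, the CCAAT box CCAAT, the E-box CACGTG (its own reverse complement), the half-site AAGGTCA of estrogen-related receptors, the cAMP response element TGACGTCA and the TATA motif TATAA. None of them contains another. Slc25a42 held 5 CCAAT boxes, a number reached by 77 of 27025 promoters of the table (0.285%), and 1 GC box. Slc25a23 held 2 GC boxes and 1 CCAAT box, and Slc25a33 held 1 GC box, 1 CCAAT box and 1 E-box. Slc25a5 held 1 GC box and 1 TATA motif. Promoters of 29 members were in the table, 1 start per gene, and 26 of them (89.7%) held a GC box, against 35.9% of all promoters. The other shares were 55.2% of members and 37.9% of all promoters for the CCAAT box, 17.2% and 7.24% for the E-box, 10.3% and 25.5% for the TATA motif, 3.45% and 4.66% for the receptor half-site, and 3.45% and 1.88% for the cAMP response element. The median GC content of these 300 bases was 61.0% in members and 52.7% in all promoters, so members and the table differ in base composition, and a match is a description of letters only.

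The group that exchanges ADP, ATP and phosphate holds the most abundant carrier, Slc25a4, and all 3 measured members had a lower mean in knock-in. Only Slc25a5 passed the test. Slc25a4, the muscle ADP/ATP exchanger, stood at 1918, 1959.6 and 1953 CPM in knock-in and at 2189.8, 2052 and 2074 CPM in wild-type. The ranges did not overlap, but the log2 fold change of -0.12 ± 0.04 did not pass (edgeR adjusted p = 0.126), in this fit or in any fit without a library (0.143 to 0.298). Slc25a3, which brings phosphate into the matrix, stood at 498, 511 and 502 CPM in knock-in and at 538, 545 and 528 CPM in wild-type. Its difference of -0.09 ± 0.04 on the log2 scale also kept the ranges apart without passing (edgeR adjusted p = 0.188).

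Because 1 gene dominates the family, sums over it largely follow Slc25a4. All 38 members summed to 3462, 3469 and 3457 CPM in knock-in libraries and to 3798, 3631 and 3616 CPM in wild-type libraries, and Slc25a4 took 55.4% to 56.5% of the members' counts in knock-in and 56.5% to 57.7% in wild-type. Without Slc25a4 the sums were 1544, 1509 and 1504 CPM in knock-in and 1608, 1579 and 1542 CPM in wild-type, ranges that just overlapped. As a share of counts outside the mitochondrial genome, members took 0.752% to 0.771% in knock-in and 0.816% to 0.840% in wild-type. These sums are descriptions, with no test.

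Levels of different carriers can be compared per length, here as CPM per kilobase (kb) of merged exons. On that scale Slc25a4 stood at 826 ± 9.54 in knock-in and 895 ± 31.5 in wild-type (SD, n = 3 each), far above any other member. Slc25a11, which exchanges oxoglutarate for malate, followed at 96.6 ± 3.25 CPM per kb in knock-in and 102 ± 4.98 in wild-type, and Slc25a3 at 90.8 ± 1.23 in knock-in and 96.8 ± 1.57 in wild-type. The order of Slc25a11 and Slc25a3 turned round when the longest transcript was taken as the length. Slc25a5 came next at 53.2 ± 3.92 CPM per kb in knock-in and 63.9 ± 2.44 in wild-type. Slc25a34, a carrier without an established substrate, stood at 33.5 ± 3.45 CPM per kb in knock-in and 30.0 ± 0.330 in wild-type. Slc25a13 completed the 6 highest at 21.3 ± 1.50 CPM per kb in knock-in and 22.5 ± 1.05 in wild-type, and 5 of these 6 were also the highest with the longest transcript, where Slc25a39 took the sixth place. At the other end Slc25a53 stood at 0.122 ± 0.0388 CPM per kb in knock-in and 0.0874 ± 0.0164 in wild-type.

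**Figure D4:**
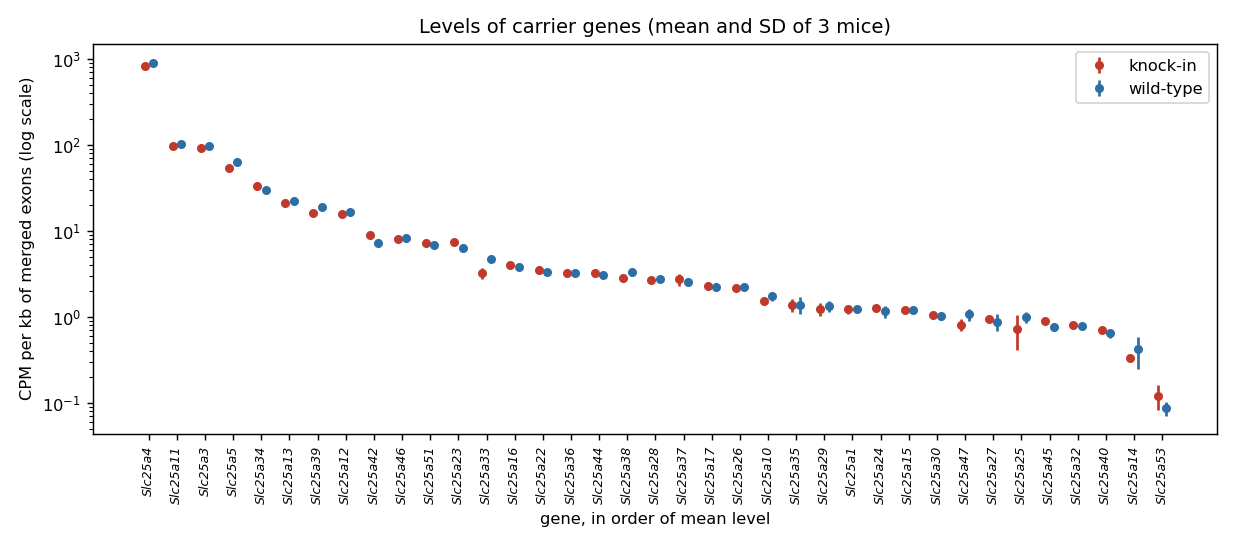
Mean CPM per kb of merged exons with its SD over 3 mice on a log axis for the carrier genes reported here, in order of level, knock-in left of wild-type. Levels run from 826 in knock-in and 895 in wild-type for Slc25a4 down to 0.122 in knock-in and 0.0874 in wild-type for Slc25a53, and the genotypes lie close together for most genes.

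Of the calcium-regulated ATP-Mg/phosphate carriers, Slc25a23 rose and Slc25a24 and Slc25a25 did not pass. Slc25a25 was the most variable, at 8.30, 3.40 and 5.45 CPM in knock-in and 8.73, 8.43 and 6.57 CPM in wild-type. Knock-in replicate 1 lay within the wild-type range and replicates 2 and 3 below it, and the log2 fold change of -0.47 ± 0.25 did not pass (edgeR adjusted p = 0.276). Without knock-in replicate 1 it was -0.82 and passed (edgeR adjusted p = 0.0236). Of the immediate early genes, which cells induce within minutes of a stimulus, 9 of 11 tested fell and none rose, with a median log2 fold change of -1.39. The count was 4 with robust dispersions, and 6 to 9 in the fits without a library (6 without knock-in replicate 3). Their summed level was 109, 70.6 and 82.8 CPM in knock-in replicates 1 to 3. In wild-type replicates 1 to 3 it was 246, 238 and 147 CPM. Jun, which was not called (0.17 ± 0.16 on the log2 scale), made up 56.5, 32.9 and 42.7 CPM of the knock-in sums. In wild-type Jun made up 43.1, 39.9 and 34.1 CPM, so the sums do not follow the called genes alone. The library with the lowest sum, knock-in replicate 2, also had the lowest Slc25a25. Knock-in replicate 1 had a sum below every wild-type library and a Slc25a25 level within the wild-type range. Of the called genes, those with the smallest p were Egr3 (-3.91 ± 0.36 on the log2 scale), Nr4a2 (-1.35 ± 0.17), Nr4a1 (-2.04 ± 0.26) and Egr2 (-4.22 ± 0.55), transcription factors that were called in all 6 fits without a library. The 2 largest of these fold changes rest on low levels. Egr3 averaged 0.576 CPM in knock-in and 8.63 CPM in wild-type, and Egr2 0.132 CPM in knock-in and 2.48 CPM in wild-type. The part of these genes in the Slc25a25 values was not tested. Slc25a24, at 4.31 ± 0.280 CPM in knock-in and 4.01 ± 0.652 CPM in wild-type, differed by less than the spread between mice.

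None of 7 amino acid carriers was called by edgeR, DESeq2 or limma-voom, and none had an unadjusted edgeR p below 0.05. The aspartate/glutamate carriers of the malate-aspartate shuttle, both bound by calcium, were among them. Slc25a12 stood at 116 ± 1.52 CPM in knock-in and 123 ± 5.89 CPM in wild-type (log2 fold change -0.09 ± 0.05). Per kb of merged exons it was below Slc25a13, at 15.8 CPM in knock-in and 16.7 CPM in wild-type, against 21.3 and 22.5 CPM. Slc25a13, better known from liver, stood at 86.9, 79.7 and 75.7 CPM in knock-in and 87.0, 81.1 and 88.7 CPM in wild-type (-0.08 ± 0.06), with overlapping ranges. The glutamate carrier Slc25a22 (0.07 ± 0.07), the branched-chain amino acid carrier Slc25a44 (0.09 ± 0.08), the ornithine carrier Slc25a15 (-0.01 ± 0.09) and the basic amino acid carrier Slc25a29 (-0.11 ± 0.17) lay near 0. Slc25a38, a glycine carrier needed for haem synthesis, had the lowest value of the group at -0.20 ± 0.09 (edgeR adjusted p = 0.208).

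The 3 carriers of di- and tricarboxylates also stayed uncalled in all 3 tools, with no unadjusted edgeR p below 0.05. Slc25a11 was read at 197, 210.1 and 207 CPM in knock-in and 229, 214 and 208 CPM in wild-type, overlapping ranges with a log2 fold change of -0.08 ± 0.05. The dicarboxylate carrier Slc25a10 stood at 5.34 ± 0.429 CPM in knock-in and 6.08 ± 0.735 CPM in wild-type, and the citrate carrier Slc25a1 at 2.65 ± 0.287 CPM in knock-in and 2.70 ± 0.222 CPM in wild-type. A fixed list held 11 enzymes of metabolite shuttles and related reactions. It includes glycerol-3-phosphate dehydrogenases, which are not taken here as served by the carriers above. With edgeR 2 of the 11 were called lower and none higher, and 9 stayed uncalled. Got1, the cytosolic aspartate aminotransferase, was at 375 ± 17.5 CPM in knock-in and 436 ± 11.7 CPM in wild-type (-0.22 ± 0.05, edgeR adjusted p = 0.0214). Gpd2, the mitochondrial glycerol-3-phosphate dehydrogenase, was at 8.68 ± 0.408 CPM in knock-in and 11.5 ± 1.27 CPM in wild-type (-0.40 ± 0.09, edgeR adjusted p = 0.0251). Both were called in 3 of 6 fits without a library.

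Among 9 carriers of cofactors and nucleotides, Slc25a42 rose, Slc25a33 fell and 7 did not pass. The 7 were close to 0 on the log2 scale, from -0.02 for Slc25a26, which imports S-adenosylmethionine, to 0.10 for Slc25a16, whose substrate is less certain. Between these lay Slc25a36 (-0.01 ± 0.07), the other pyrimidine nucleotide carrier, and the peroxisomal carrier Slc25a17 (0.03 ± 0.10). The NAD carrier Slc25a51 (0.07 ± 0.05) and the flavin and folate carrier Slc25a32 (0.07 ± 0.10) also lay there.

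None of 4 carriers of iron and glutathione was called with edgeR, DESeq2 or limma-voom, and 1 had an unadjusted edgeR p below 0.05. That gene, Slc25a39, brings glutathione into the matrix and stood at 47.1, 41.9 and 45.1 CPM in knock-in and 56.5, 50.3 and 49.0 CPM in wild-type. The ranges did not overlap, and the log2 fold change was -0.21 ± 0.07 (edgeR adjusted p = 0.0711). Without knock-in replicate 1 it was -0.25 and passed (edgeR adjusted p = 0.0466), and in the other fits without a library it did not (0.0850 to 0.205). Its relative Slc25a40 was at 5.89 ± 0.329 CPM in knock-in and 5.40 ± 0.562 CPM in wild-type. The mitoferrin genes, which supply iron for haem and iron-sulphur clusters, did not pass either, at 0.11 ± 0.10 on the log2 scale for Slc25a37 and -0.06 ± 0.08 for Slc25a28. Slc25a37, the form best known from red cell precursors, stood at 18.8, 13.7 and 17.0 CPM in knock-in and 14.7, 15.2 and 15.9 CPM in wild-type. The erythroid markers summed to 5301, 602 and 2829 CPM in knock-in and to 2226, 585 and 740 CPM in wild-type, in the same order of replicates. In knock-in the libraries ranked alike by Slc25a37 and by this sum. In wild-type, replicate 1 had the highest sum and the lowest Slc25a37. None of the 7 erythroid markers in the table was at 0 counts, and their part in the spread of Slc25a37 was not tested.

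The relatives of uncoupling proteins, Slc25a14, Slc25a27 and Slc25a30, were low and none was called by the 3 tools or had an unadjusted edgeR p below 0.05. Their log2 fold changes were -0.33 ± 0.31, 0.10 ± 0.16 and 0.02 ± 0.12. Of 6 poorly characterised carriers none was called by any of the 3 tools, and 2 had an unadjusted edgeR p below 0.05, Slc25a34 and Slc25a47. Slc25a34 was read at 100.04, 84.2 and 84.0 CPM in knock-in and 79.0, 80.4 and 80.6 CPM in wild-type, without overlap and with a log2 fold change of 0.16 ± 0.07 (edgeR adjusted p = 0.159). Slc25a47, known mainly from liver, was at 2.88, 2.25 and 2.18 CPM in knock-in and 2.77, 3.78 and 3.10 CPM in wild-type (-0.41 ± 0.17, edgeR adjusted p = 0.169). Knock-in replicate 1 overlapped wild-type. Slc25a53 was at 0.788, 1.33 and 0.793 CPM in knock-in and 0.545, 0.775 and 0.768 CPM in wild-type (0.46 ± 0.30, edgeR adjusted p = 0.387), from 14 to 46 counts per library. Slc25a45 (0.22 ± 0.16), Slc25a35 (-0.01 ± 0.17) and Slc25a46 (-0.05 ± 0.06), an outer membrane protein of mitochondrial dynamics, also did not pass.

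Ratios between related carriers within a library do not depend on scaling. The count of Slc25a4 was 20.2, 23.9 and 22.7 times that of Slc25a5 in knock-in libraries and 20.1, 20.3 and 19.7 times in wild-type libraries, ranges that overlapped. The ratio of Slc25a33 to Slc25a36 was 0.218, 0.172 and 0.197 in knock-in and 0.309, 0.285 and 0.264 in wild-type. That of Slc25a39 to Slc25a40 was 7.50, 7.31 and 7.95 in knock-in and 9.42, 10.3 and 9.22 in wild-type. Neither of these pairs overlapped between the genotypes, with mean log2 ratios lower in knock-in by differences of -0.55 and -0.34. The ratio of Slc25a23 to Slc25a25 was 5.14, 11.0 and 7.22 in knock-in and 3.70, 4.15 and 5.08 in wild-type, ranges that nearly touched without overlap. The log2 ratio of the aspartate/glutamate carriers Slc25a12 and Slc25a13 averaged 0.52 ± 0.11 in knock-in and 0.52 ± 0.12 in wild-type (SD, n = 3 each), and that of the mitoferrins Slc25a28 and Slc25a37 averaged -0.71 ± 0.19 in knock-in and -0.55 ± 0.17 in wild-type. With 3 mice against 3 an exact two-sided permutation test cannot go below p = 0.1, so these ratios are given without a test. Slc25a33, Slc25a39 and Slc25a23 also had ranges apart on their own, as did 29.4% of all single genes tested. No share over other pairs of genes was worked out for comparison.

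**Figure D5:**
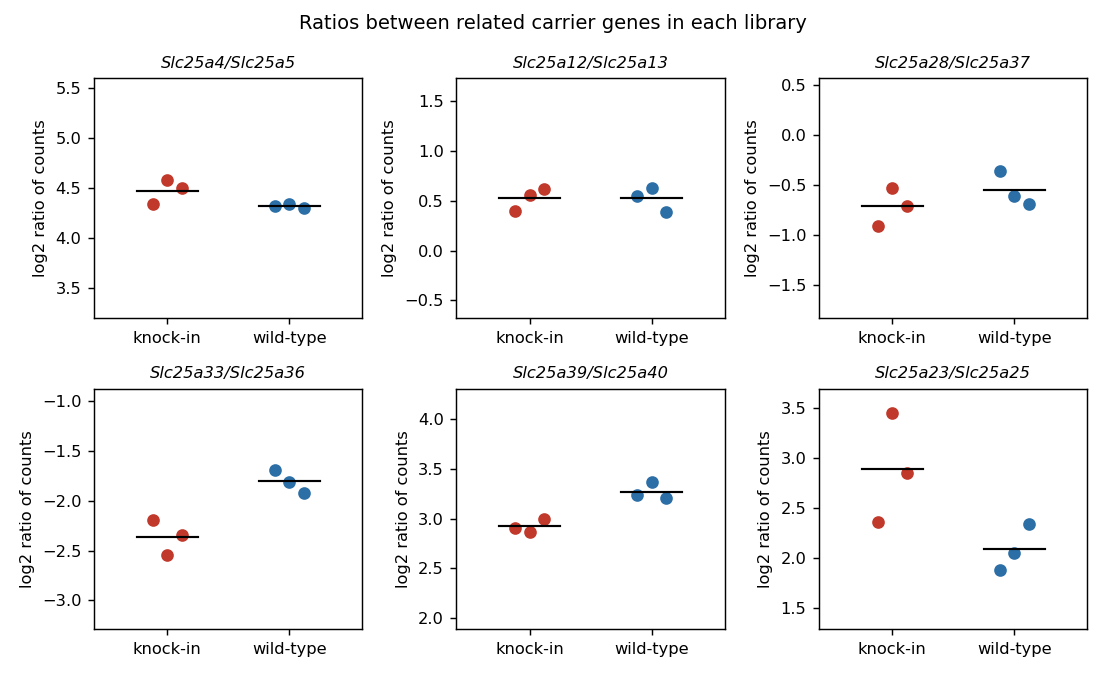
Log2 ratio of counts for 6 pairs of related carrier genes in each library, knock-in left and wild-type right, with a line at the mean of 3 mice; all panels span the same range of log2 units. The points of the genotypes lie apart for Slc25a33/Slc25a36, Slc25a39/Slc25a40 and Slc25a23/Slc25a25 and overlap for the other 3 pairs. For Slc25a23/Slc25a25 they nearly touch, at 2.36 in knock-in replicate 1 and 2.35 in wild-type replicate 3.

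Members are spread over 18 chromosomes, with 5 on chromosome 11. The closest pair, Slc25a29 and Slc25a47 on chromosome 12, is transcribed in opposite directions from starts with 162 bases between the genes, and their log2 fold changes were -0.11 ± 0.17 and -0.41 ± 0.17. Among genes of the table that overlap a member on the opposite strand, those reaching 5 or more counts in a library were as follows: Rnf167 (553 to 904 counts per library) overlaps Slc25a11, Lrig1 (576 to 916) Slc25a26, Rangrf (426 to 594) Slc25a35, Naif1 (79 to 114) Slc25a25, B930094E09Rik (13 to 20) Slc25a46 and Crb3 (0 to 5) Slc25a23. These overlaps are of whole gene spans with introns, and overlap of exons was not examined. Since it is not known whether strand was used in counting, the levels of these members are uncertain where exons overlap. Just inside the minimum of counts lay Slc25a53 with 14 to 46 counts per library, and just outside it Slc25a31, the ADP/ATP exchanger of the testis, with 1 to 7. The other members under the minimum were Slc25a18 (1 to 8 counts), Slc25a43 (0 to 5), Slc25a2 (0 to 3), Slc25a21 (0 to 2), Slc25a41 and Slc25a48 (0 to 1 each) and Slc25a54 (0).

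Genes that work with the carriers were followed as fixed lists. Of 16 tested genes that import carriers into the inner membrane none was called by edgeR, DESeq2 or limma-voom, and 3 had an unadjusted edgeR p below 0.05, with a median log2 fold change of -0.04. The smallest p of that list was that of Tomm5, a small subunit of the outer membrane pore, at 25.4 ± 1.04 CPM in knock-in and 29.4 ± 1.53 CPM in wild-type (edgeR adjusted p = 0.0612). Among 10 porins and other metabolite transporters 1 fell and 9 did not pass. It was Mpc2, a subunit of the mitochondrial pyruvate carrier, at 81.8 ± 0.192 CPM in knock-in and 92.7 ± 3.68 CPM in wild-type (-0.18 ± 0.04, edgeR adjusted p = 0.0314; called in 1 of 6 fits without a library). Its partner Mpc1 stood at 219.9 ± 7.72 CPM in knock-in and 241 ± 4.95 CPM in wild-type (edgeR adjusted p = 0.0863).

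Members of the carrier family with other symbols were also measured. Of Ucp2, Ucp3, Mtch1 and Mtch2 none was called by the 3 tools, and 1 had an unadjusted edgeR p below 0.05. Ucp3, an uncoupling protein of muscle, was at 36.1, 38.8 and 28.1 CPM in knock-in and 30.8, 21.7 and 23.5 CPM in wild-type (0.44 ± 0.14, edgeR adjusted p = 0.0756). Ucp1, which marks brown fat, had 0 counts in all libraries. Of 12 genes of haem and iron-sulphur synthesis none was called by the 3 tools, 2 had an unadjusted edgeR p below 0.05, and the median was -0.05. The smallest p was that of Iscu, the scaffold of iron-sulphur cluster assembly (-0.18 ± 0.06, edgeR adjusted p = 0.0807). Of 12 regulators of nuclear genes for mitochondria Ppara fell, at 22.2 ± 2.66 CPM in knock-in and 28.5 ± 2.20 CPM in wild-type (-0.36 ± 0.09, edgeR adjusted p = 0.036), and 11 did not pass. The median log2 fold change of the 12 was -0.11, with 2 above 0 and 10 below. Over all 13485 genes tested 6842 were above 0 and 6643 below. Ppara was called in 2 of 6 fits without a library, and the list had no call without knock-in replicate 2 or 3 or wild-type replicate 3. In the circadian clock list 2 of 12 rose, 1 fell and 9 did not pass. Those that rose were Dbp (0.44 ± 0.11, edgeR adjusted p = 0.029) and Nr1d1 (0.44 ± 0.11, edgeR adjusted p = 0.0341), and the one that fell was Per2 (-0.89 ± 0.16, edgeR adjusted p = 0.009). Of 6 fits without a library Per2 was called in 6 and Dbp and Nr1d1 in 2 each, with 5 clock genes called without knock-in replicate 1 and 1 each without knock-in replicate 2 or 3 or wild-type replicate 2 or 3. With robust dispersions edgeR called 0 clock genes and with library size alone 1, whereas DESeq2 called 2 and limma-voom 3.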

How the data were processed

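RNA from the left ventricle of 6 mice was column-purified with DNase digestion and made into stranded TruSeq libraries, per the labels' protocols. The deposited table holds estimated counts per gene symbol, which the authors made with kallisto 0.44.0 after bcl2fastq 2.19 on GRCm38, per the submitters' processing notes. All values were whole, so that rounding changed none. The sources used here do not give the annotation, the summing to genes or the use of strand, so genes with near-identical copies are uncertain. Genes of overlapping span, such as Slc25a11 with Rnf167, are uncertain where their exons overlap, which was not examined. Of 34945 symbols 34210, including all 38 members, matched GENCODE M21 for coordinates and exon lengths. Libraries of a genotype differed by at least 7.98 in chi-square per degree of freedom, so none was counted as a duplicate.

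Rounded counts were tested across all 13485 genes left by filterByExpr with edgeR 4.0.16 in R 4.3.3 (TMM, glmQLFit, glmQLFTest, two-sided, no covariate, Benjamini-Hochberg). The biological coefficient of variation was 8.35%. A positive log2 fold change means higher in knock-in, and its error is the SE. DESeq2 1.42.0, limma 3.58.1 (voom), other scalings, filters, robust dispersions and fits without each library were run as alternatives. The members and lists were chosen with earlier results of these data known. Named with values in each library are called members, the 6 highest per kb and the 3 uncalled with the largest fold change. Of each list up to 4 called genes, or the 1 with the smallest p, are named with a mean or a fold change, as are the other members. The values in each library of Slc25a37, Slc25a39, Ucp3 and Jun, the mean of Mpc1 and the level per kb of Slc25a12 were added after values were seen. Promoters are from RefSeq. The values of 1 member, which was not called, are not reported here, although counts, sums and medians over the members hold it. Slc25a52 and Ahsp were not analysed here, and the ratio of Slc25a22 to Slc25a18 was left out because the second gene had 1 to 8 counts.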

Additional observations from a re-analysis of the deposited data

How the results depend on the processing

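Over 9 other settings and 6 fits without a library, 516 of 568 member fold changes kept direction and side of the threshold, 16 lost the call, 5 gained it and 31 turned sign, in 16 members none of which was called. No paired analysis was possible because the genotypes share no replicate number in the labels. Calls over all genes ranged from 338 to 1378 without a library, members called higher from 0 to 1 and lower from 0 to 4, and related list genes from 8 to 19, against 1215, 2, 2 and 16. Robust dispersions left 9 list genes, and library size alone 0 members called higher (edgeR; 13 members with an unadjusted p below 0.05). Differences of log2 ratios without a library ranged from 0.10 to 0.22 for Slc25a4/Slc25a5, -0.065 to 0.064 for Slc25a12/Slc25a13, -0.25 to -0.063 for Slc25a28/Slc25a37, -0.63 to -0.46 for Slc25a33/Slc25a36, -0.38 to -0.30 for Slc25a39/Slc25a40 and 0.51 to 1.06 for Slc25a23/Slc25a25. The log2 fold changes that turned sign are as follows, and the cause was not tested. With library size alone Slc25a17 was -0.052, Slc25a22 -0.011, Slc25a30 -0.058, Slc25a32 -0.012 and Slc25a51 -0.016. With upper-quartile factors Slc25a15 was 0.0078, Slc25a35 0.011 and Slc25a36 0.0073, and with limma-voom Slc25a35 was 0.023. Without a library the lowest and highest were Slc25a1 from -0.11 to 0.046, Slc25a14 from -0.58 to 0.048, Slc25a15 from -0.063 to 0.033, Slc25a17 from -0.055 to 0.098, Slc25a24 from -0.014 to 0.23, Slc25a26 from -0.067 to 0.033, Slc25a27 from -0.019 to 0.30, Slc25a28 from -0.10 to 0.013, Slc25a29 from -0.21 to 0.023, Slc25a30 from -0.032 to 0.12, Slc25a35 from -0.17 to 0.14, Slc25a36 from -0.065 to 0.048 and Slc25a46 from -0.088 to 0.013. With 3 mice a genotype, small differences can be missed, and genes such as Slc25a53 and Slc25a14 rest on under 50 counts a library.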
